A study of Homo sapiens with 6 samples.

Results

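The genes described here are the PIM kinases PIM1, PIM2 and PIM3 and 6 genes of the cytokine-inducible SH2 family, CISH, SOCS1, SOCS2, SOCS4, SOCS5 and SOCS6. They are 9 of the 61541 genes in the count table, found by symbol, and each matched a single Ensembl gene. The genes were chosen by family membership with their log2 fold changes and adjusted p-values in this comparison already known, so their differences are given as a description, and the 1 count of members past the test's threshold supports nothing. RNA sequencing was done in 6 libraries labelled as A498 cells, a human line derived from a clear cell renal carcinoma. In 3 libraries, called shRNF26, RNF26 had been knocked down with a short hairpin RNA, and 3 libraries, called shcontrol, came from the control group of that knockdown. RNF26 is an E3 ubiquitin ligase of the endoplasmic reticulum membrane, and the series title ties it to CDK4/6 inhibitors, TSC1 and anti-angiogenic drugs. Delivery is labelled as transfection and infection for both groups, the medium was RPMI-1640 plus serum in both, and the labels do not say how many hairpins or clones were used or whether replicates were separate cultures. The p-values therefore measure only the spread between these libraries, which may be technical.

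PIM kinases are serine/threonine kinases that are active as soon as they are made, so their activity follows the amount of protein and, upstream of it, transcript. They promote survival, cell cycle entry and cap-dependent translation, and PIM1 is a known target gene of STAT3 and STAT5, the transcription factors that JAK kinases switch on below cytokine receptors. CISH and the SOCS proteins are the brakes of the same pathway. CISH and SOCS1 to SOCS3 are induced by STATs and bind activated receptors or JAK kinases, SOCS4 and SOCS5 are best known for acting on the epidermal growth factor receptor, and SOCS6 binds receptor tyrosine kinases such as KIT. All carry a SOCS box, which joins them to a ubiquitin ligase built on elongins and cullin 5.

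The CISH promoter is shown because it is the textbook case of a STAT-driven promoter and because CISH was among the 2 members that were not lower. RefSeq promoter windows (GRCh38.p14, 250 bases before to 50 after the start) were given for 7 of the 9 members, all except SOCS2 and SOCS5. The STAT motif TTCNNNGAA, which reads the same on both strands, was found 4 times in the CISH window and in no window of PIM1, PIM2, PIM3, SOCS1, SOCS4 or SOCS6. Of all 35116 windows, 7.66% held at least 1 match and 7 windows, or 0.0199%, held 4 or more. The matches, in capitals, lie in this stretch of the minus strand at chr3:50611875-50612024.
CISH promoter: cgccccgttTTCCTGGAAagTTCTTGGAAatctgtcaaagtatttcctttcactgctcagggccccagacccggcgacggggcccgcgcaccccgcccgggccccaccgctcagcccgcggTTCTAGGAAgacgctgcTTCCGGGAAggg
The first 2 matches begin 241 and 230 bases before the start, and the last 2 begin 129 and 112 bases before it. With TTC and GAA spaced by 4 bases in place of 3 (in 6.44% of windows) no member had a match. The AP-1 motif TGANTCA (7.71% of windows) and the CRE TGACGTCA (1.85%), each searched on both strands, were also in none of the 7 windows. A match is a run of letters and not a shown binding site, and its absence says nothing about sites outside the window.

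Transcripts of this kind are often short-lived, and AU-rich elements in the 3′ UTR are known to speed their decay, so those were read from GENCODE 29 (GRCh38) as well. The nonamer TTATTTATT, counted with overlaps in the sense strand, was present in PIM1 (3 matches), CISH (2) and SOCS2 (1) and absent from the 3′ UTRs of PIM2, PIM3, SOCS1, SOCS4, SOCS5 and SOCS6. The first site of each is shown in its sense strand with the nonamer in capitals.
PIM1 site: gttatgtatTTATTTATTtatttatttg
CISH site: atacactatTTATTTATTtattctcctt
SOCS2 site: gtccagacaTTATTTATTttatggcttt
The 3 genes with a nonamer were thus the member with the lowest fold change and the 2 members that were not lower. Among 11915 tested coding genes with a 3′ UTR of at least 50 bases, 8.56% had a nonamer. Their median log2 fold change was -0.03, against 0.0049 in genes with none. Of them 32.8% were called lower and 18.9% higher, against 24.1% and 20.6% of genes with none. Their 3′ UTRs were longer, with a median of 2746 bases against 978, and the 2 sets were not matched for length. SOCS1 had no copy of the shorter element ATTTA in its 438 bases of 3′ UTR. PIM2 had 2.107 copies per kb, below the 2.29 per kb over all these genes. The other members were above it, from 2.7 per kb in CISH to 4.077 in SOCS6 and 4.197 in PIM3. Of these genes 85.1% had a density at or below that of PIM3.

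Each library held 16682871 to 18021718 gene counts, so a count of 0 allows up to 0.166 to 0.180 CPM, the count of a gene scaled to the library total. RNF26 averaged 68.7 ± 0.482 CPM in shRNF26 libraries and 1972 ± 49.7 CPM in shcontrol libraries (SD, n = 3 each; levels are CPM rescaled by the trimmed mean of M values, TMM). Of 18 markers of renal tubule and clear cell carcinoma, 13 averaged below 1 CPM, and SLC17A1 and HAVCR1 had no count in any library. PAX8, a transcription factor of the renal lineage, averaged 2.12 CPM in shRNF26 and 2.90 CPM in shcontrol libraries. Others on the renal list were higher, with VIM at 19.3 CPM in shRNF26 and 49.9 CPM in shcontrol libraries. EGLN3 averaged 14.96 CPM in shRNF26 and 8.82 CPM in shcontrol libraries, and ANGPTL4 1.79 and 12.01 CPM. All 10 squamous epithelial markers averaged above 1 CPM, among them TP63 with 194 CPM in shRNF26 and 173 CPM in shcontrol libraries. KRT14, KRT16, IVL and SPRR1B were low, averaging 2.51 to 3.78 CPM in shRNF26 and 2.96 to 6.94 CPM in shcontrol libraries. The summed level of those 10 was 2832 to 2909 CPM in shRNF26 and 5138 to 5390 CPM in shcontrol libraries, and its part in the results below was not tested. Most renal markers were low and some squamous markers were high, but both lists were mixed. These levels leave the label of clear cell renal carcinoma cells in doubt without settling it, and the identity of the cells was not tested. The cells are therefore called here only by their library names, and A498 is the label's name for them. Markers of leukocytes were summed at 1.74 to 2.01 CPM in shRNF26 and 1.78 to 2.38 CPM in shcontrol libraries. Those of endothelium were summed at 4.73 to 6.81 CPM in shRNF26 and 5.48 to 5.80 CPM in shcontrol libraries. Those of fibroblasts were summed at 81.9 to 88.6 CPM in shRNF26 and 55.2 to 66.3 CPM in shcontrol libraries, nearly all of it COL1A1, and these sums were not tested for a part in the results. In bulk RNA, fewer cells of a type and less RNA per cell cannot be told apart.

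Across the 9 members, PIM1 was far lower in shRNF26 cells, SOCS1 was at about 47.2% of its shcontrol level, 5 others were modestly lower, and CISH and SOCS2 were slightly higher. All 9 passed the minimum of 1 CPM on average. In the edgeR quasi-likelihood fit across 14766 genes, 7 members were past an adjusted p of 0.05, all lower, and 2 were not past it; this count was known when the members were chosen. With total-count scaling 6 were past it as lower and 1 as higher, and without shRNF26 replicate 2 there were 6, all lower. The same threshold called 41.4% of all tested genes, 22.6% lower and 18.9% higher. PIM1 and SOCS1 were lower by at least 2-fold, as were 2.4% of tested genes, and no member was higher by that much, as were 0.542%. The median log2 fold change was -0.36 over the members and 0.0079 over all tested genes. The shRNF26 and shcontrol values did not overlap for 8 of the 9 members, as was the case for 50.1% of all tested genes. All shRNF26 libraries were lower for 7 members (25.9% of tested genes) and higher for 1, CISH (24.2%).

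**Figure D1:**
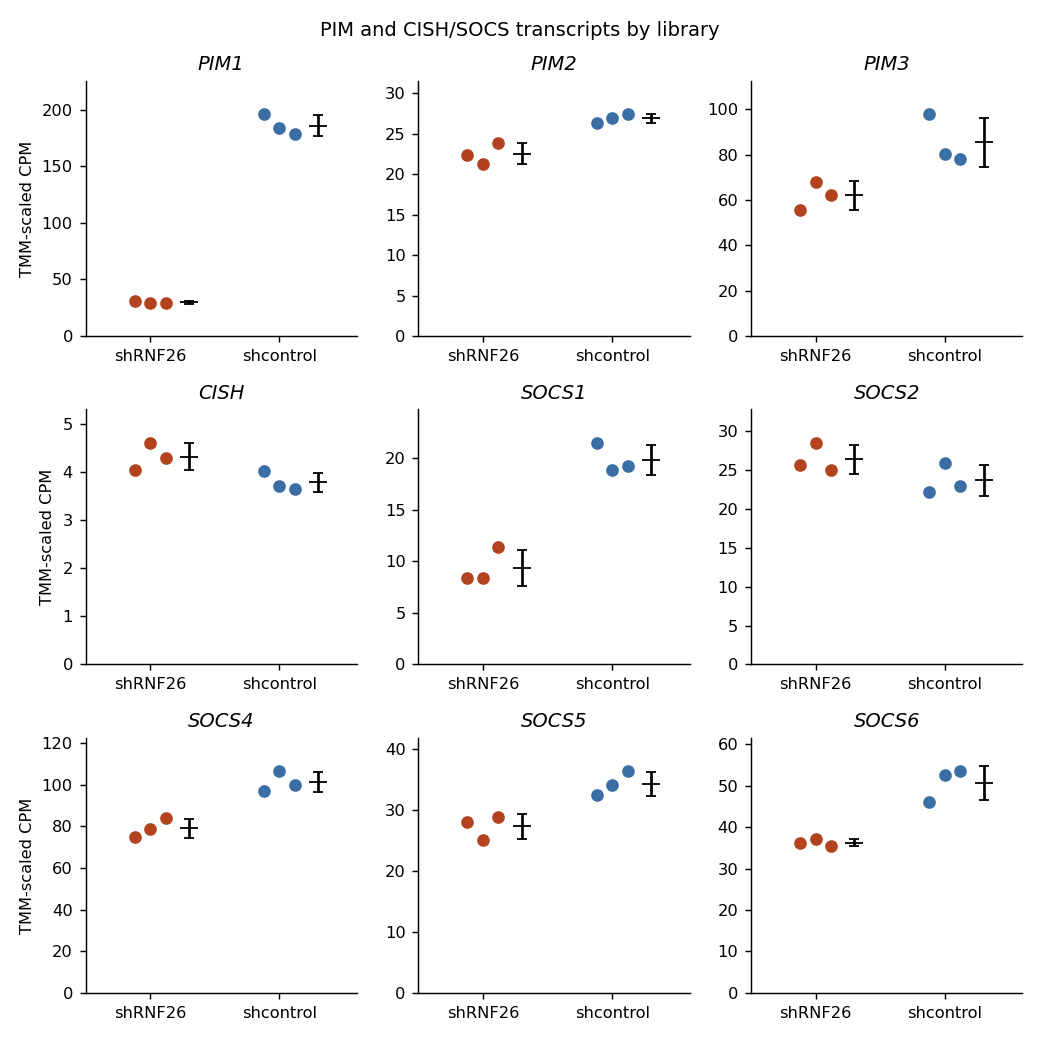
TMM-scaled CPM of the 9 members, 1 point per library (shRNF26 on the left, shcontrol on the right of each panel), with the mean and SD beside the points; each vertical axis starts at 0. PIM1 lies at 28.7 to 31.2 CPM in the shRNF26 libraries and 178 to 196 CPM in the shcontrol libraries, while the points of SOCS2 overlap.

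PIM1, the first described member of the kinase family and a cytokine-induced survival factor, had 31.2, 28.7 and 28.9 CPM in the shRNF26 libraries, against 196, 184 and 178 CPM in the shcontrol libraries. In raw reads these were 554, 529 and 497 counts in shRNF26 and 3413, 3014 and 2930 counts in shcontrol libraries. All shRNF26 libraries lay far below all shcontrol libraries, and the spread within each group was small beside the gap. PIM1 averaged 29.6 ± 1.36 CPM in shRNF26 and 186 ± 9.06 CPM in shcontrol libraries, which left 15.9% of the shcontrol level. Its log2 fold change was -2.65 (SE 0.055), and 42 of the 14766 tested genes, PIM1 included, had a value as low or lower. GENCODE 29 lists no gene that overlaps PIM1.

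PIM3, the paralogue linked to growth of epithelial tumours, had 55.6, 68.1 and 62.3 CPM in the shRNF26 libraries, against 97.8, 80.3 and 78.2 CPM in the shcontrol libraries. The groups did not overlap, but shcontrol replicate 1 stood above the other shcontrol libraries. The log2 fold change was -0.46 (SE 0.079), and -0.36 without that library. PIM2, the paralogue best known from lymphoid cells, had 22.4, 21.3 and 23.9 CPM in the shRNF26 libraries, against 26.4, 26.9 and 27.4 CPM in the shcontrol libraries. Every shRNF26 library was lower, by a margin close to the spread of the shRNF26 group, and the log2 fold change was -0.26 (SE 0.076). That value depended on the scaling, since total-count scaling gave -0.16, and it was -0.22 without shRNF26 replicate 2.

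The makeup of the PIM family differed between the groups. Levels of different genes were compared as CPM per kb of merged exons from GENCODE 29, since the deposited counts are not scaled for length. The 3 PIM genes summed to 41.2, 45.1 and 43.7 CPM per kb in the shRNF26 libraries, against 115, 104 and 102 CPM per kb in the shcontrol libraries. PIM1 made up 23.0% ± 2.12 of that sum in shRNF26 and 58.5% ± 1.12 in shcontrol libraries (SD, n = 3 each). PIM3 made up 58.1% ± 3.29 in shRNF26 and 32.4% ± 1.85 in shcontrol libraries, so PIM3 was the most abundant PIM transcript in shRNF26 cells and PIM1 in shcontrol cells. PIM2 made up 18.9% ± 1.53 in shRNF26 and 9.14% ± 0.762 in shcontrol libraries, although its own level was lower in shRNF26 cells.

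SOCS1, which binds JAK kinases directly and blocks their active site, had 8.33, 8.37 and 11.4 CPM in the shRNF26 libraries, against 21.5, 18.8 and 19.2 CPM in the shcontrol libraries. The groups did not overlap, and shRNF26 replicate 3 was the highest of its group. The log2 fold change was -1.08 (SE 0.12), or -1.25 without that library. SOCS1 lies within RMI2, which is annotated on the opposite strand but shares no exon with it. RMI2 had 280, 274 and 215 counts in shRNF26 and 200, 181 and 184 counts in shcontrol libraries.

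SOCS6, SOCS4 and SOCS5, the members whose known targets are mainly receptor tyrosine kinases, were lower by similar amounts. SOCS6 had 36.1, 37.2 and 35.4 CPM in the shRNF26 libraries, against 46.1, 52.5 and 53.5 CPM in the shcontrol libraries. SOCS4, the most abundant of the SOCS members, had 74.7, 78.6 and 83.8 CPM in the shRNF26 libraries, against 97.1, 106 and 99.95 CPM in the shcontrol libraries. SOCS5 had 28, 25 and 28.9 CPM in the shRNF26 libraries, against 32.5, 34.1 and 36.4 CPM in the shcontrol libraries. For all 3 genes every shRNF26 library was below every shcontrol library. The log2 fold changes were -0.48 (SE 0.066) for SOCS6, -0.36 (SE 0.054) for SOCS4 and -0.33 (SE 0.076) for SOCS5. SOCS5 shares exon bases with LINC01118 on the same strand, a transcript with 0 to 3 counts in each library.

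CISH and SOCS2, the members most closely tied to STAT5 and to growth hormone and related receptors, were not lower. CISH had 4.05, 4.62 and 4.30 CPM in the shRNF26 libraries, against 4.02, 3.71 and 3.65 CPM in the shcontrol libraries. The groups were separated only by the gap between 4.05 and 4.02 CPM, which is smaller than the SD of either group. The log2 fold change was 0.19 (SE 0.17). CISH rests on 60 to 85 counts per library, and it shares exon bases with MAPKAPK3 on the opposite strand, which had 931 to 1068 counts. No label states the strand setting of the counting, so reads from CISH and MAPKAPK3 cannot be told apart where they overlap.

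SOCS2, an inhibitor of growth hormone signalling, had 25.7, 28.5 and 25 CPM in the shRNF26 libraries, against 22.2, 25.9 and 23.0 CPM in the shcontrol libraries. These values overlapped between the groups. The log2 fold change was 0.16 (SE 0.083), and total-count scaling gave 0.25. SOCS2 shares exon bases with SOCS2-AS1 on the opposite strand, which had 27 to 40 counts per library.

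**Figure D2:**
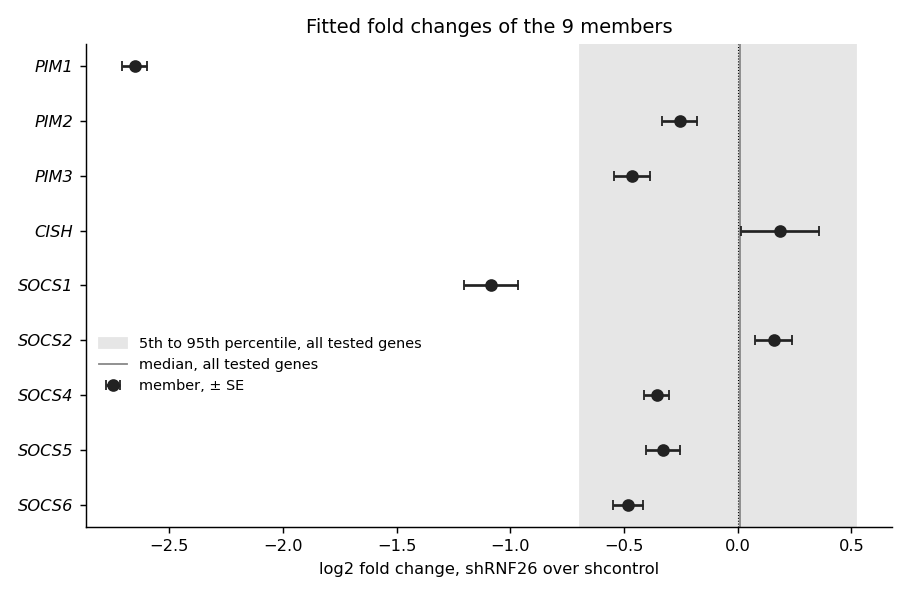
Log2 fold change (shRNF26 over shcontrol) of each member with its SE, from the edgeR fit; the grey band spans the 5th to 95th percentile of all 14766 tested genes, -0.69 to 0.52, and the grey line is their median. PIM1 and SOCS1 lie below the band and the other 7 members within it.

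In order of level per length, the shRNF26 libraries ran PIM3 (25.2 CPM per kb), SOCS4 (11.2), PIM1 (9.95), PIM2 (8.16), SOCS6 (6.05), SOCS1 (5.21), SOCS2 (3.90), SOCS5 (3.60) and CISH (0.846). In the shcontrol libraries the order was PIM1 (62.5 CPM per kb), PIM3 (34.7), SOCS4 (14.4), SOCS1 (11), PIM2 (9.74), SOCS6 (8.47), SOCS5 (4.51), SOCS2 (3.50) and CISH (0.743). Neighbours whose libraries overlapped were SOCS6 and SOCS1, and SOCS2 and SOCS5, both in the shRNF26 group. With the longest transcript as the length, PIM2 came before SOCS1 in shcontrol libraries, and SOCS2 and SOCS5 came before SOCS1 in shRNF26 libraries, SOCS2 also before SOCS6. The 6 CISH and SOCS members summed to 29.5 to 32.5 CPM per kb in shRNF26 and 41.8 to 43.4 CPM per kb in shcontrol libraries, and SOCS1 made up 16.8% ± 2.34 of that sum in shRNF26 and 25.9% ± 2.38 in shcontrol libraries.

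**Figure D3:**
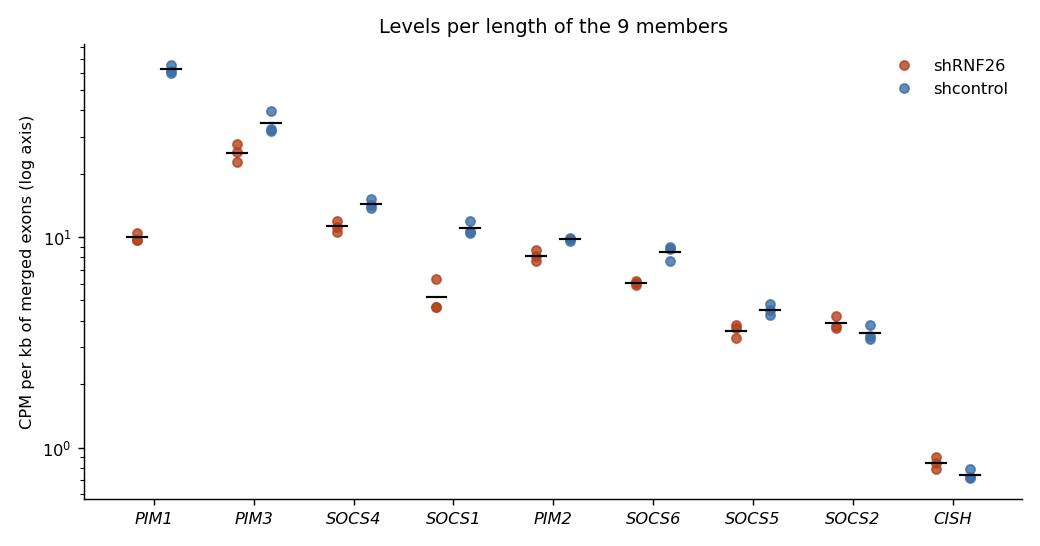
Levels per length of the 9 members as CPM per kb of merged exons on a log axis, 1 point per library with the group mean as a line (shRNF26 left of shcontrol for each gene), ordered by the shcontrol mean. PIM1 is first in the shcontrol libraries at 62.5 CPM per kb and after PIM3 and SOCS4 in the shRNF26 libraries at 9.95 CPM per kb.

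The remaining family genes, SOCS3 and SOCS7, were looked up as well. SOCS3, a STAT3-induced inhibitor of signalling through the interleukin-6 receptor subunit IL6ST, had 17.5, 18.5 and 18.1 CPM in the shRNF26 libraries, against 52.8, 53.8 and 54.6 CPM in the shcontrol libraries. The groups were far apart, and SOCS3 fell by 1.57 on the log2 scale (SE 0.066, edgeR adjusted p = 3.5e-13). SOCS7 had 11.4, 14.2 and 12 CPM in the shRNF26 libraries, against 10.8, 14.6 and 11.8 CPM in the shcontrol libraries. Its values overlapped, and it did not pass the test (log2 fold change 0.02 with an SE of 0.12; adjusted p = 0.91 by edgeR).

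Among the genes whose levels over the 6 libraries ran most like those of PIM1 were ANTXR2, HBEGF, PPP1R15A and STC2, with Pearson correlations of 0.9997 to 0.9999 on log2(CPM + 1). HBEGF, a ligand of the epidermal growth factor receptor, averaged 62.5 CPM in shRNF26 and 316 CPM in shcontrol libraries. PPP1R15A, a stress-induced subunit of the phosphatase for eIF2 alpha, averaged 84.6 CPM in shRNF26 and 567 CPM in shcontrol libraries. With 2 separate groups such a correlation mostly restates the group difference, and 408 genes exceeded 0.99.

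The rest of the pathway was described with 8 lists of other genes, set down with earlier results of these data known. The lists share genes, so they are not separate observations. LIF is in the cytokines and the STAT targets, MYC and CDKN1A are in the STAT targets and the PIM substrates, and STAT3 is in 2 lists. Cytokines that induce these families were mostly lower. Among the 11 tested cytokines 8 fell, no gene rose and 3 missed the threshold (72.7% called, against 41.4% of all tested genes). Over all tested genes 22.6% were lower and 18.9% higher. The median log2 fold change of the cytokines was -1.0, against 0.0079 over all tested genes. IL6 and IL24, among the 8, averaged below 1 CPM in shRNF26 libraries and passed the filter only through the shcontrol libraries. Their fall therefore adds no support to this count, and DESeq2's Wald test called 7 lower. IL6, which signals through STAT3, had 0.732, 0.652 and 0.989 CPM in the shRNF26 libraries, against 9.94, 11.3 and 9.99 CPM in the shcontrol libraries. IL11, from the same family, averaged 44.4 ± 1.12 CPM in shRNF26 and 188 ± 4.31 CPM in shcontrol libraries and fell by 2.08 on the log2 scale (SE 0.048, edgeR adjusted p = 4.09e-17). CSF2, a STAT5-activating cytokine, averaged 8.51 ± 0.752 CPM in shRNF26 and 87.1 ± 9.70 CPM in shcontrol libraries. IL24, near the lowest level tested, averaged 0.374 CPM in shRNF26 and 1.77 CPM in shcontrol libraries.

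The receptors for these cytokines went both ways. Among the 20 tested receptors 4 fell, 3 rose and 13 missed the threshold (35% called, against 41.4% of all tested genes). Their median was 0.0014. IL6R, the specific interleukin-6 receptor, fell to 14.6 ± 0.979 CPM in shRNF26 libraries, against 31.5 ± 0.950 CPM in shcontrol libraries (log2 fold change -1.11 with an SE of 0.081; adjusted p = 2.02e-09 by edgeR). IL6ST, the signalling subunit shared by interleukin-6 family cytokines, fell to 106 ± 2.75 CPM in shRNF26, against 150 ± 6.53 CPM in shcontrol libraries. PRLR, the prolactin receptor, rose by 0.97 and IL20RA by 0.49 on the log2 scale. PRLR averaged 1.72 CPM in shRNF26 and 0.879 CPM in shcontrol libraries, so it passed the filter only through the shRNF26 libraries. Its rise therefore adds no support to the count of receptors that rose. The rise of IL20RA was lost without shcontrol replicate 1 (0.41) or 2 (0.47) or shRNF26 replicate 1 (0.42) or 2 (0.46), and that of PRLR without shcontrol replicate 1 (0.82). The count of receptors that rose was 1 without shcontrol replicate 1, and the count that fell was 2 without shRNF26 replicate 1 and 2 with total-count scaling. The receptors for CSF2, CSF2RA and CSF2RB, for IL11, IL11RA, and for growth hormone, GHR, averaged below 1 CPM and were not tested.

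JAK kinases and STAT factors differed little in level. Among the 9 tested genes 4 rose, 1 fell and 4 missed the threshold (55.6% called, against 41.4% of all tested genes). Their median was 0.09. STAT5A rose by 0.36 (SE 0.099), STAT5B by 0.22 (SE 0.041) and the kinase TYK2 by 0.22 (SE 0.043). STAT5A and STAT5B are near-identical neighbours that can share reads, and the STAT5A values overlapped between the groups, at 34.7 to 39.8 CPM in shRNF26 and 24.5 to 35.2 CPM in shcontrol libraries. STAT3 averaged 263 CPM in shRNF26 and 251 CPM in shcontrol libraries and did not pass.

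Genes described as STAT targets were mostly lower. Among the 23 tested targets 13 fell, 5 rose and 5 missed the threshold (78.3% called, against 41.4% of all tested genes). All tested genes were 22.6% lower and 18.9% higher by this threshold. The median of the targets was -0.32. FOS, an immediate early AP-1 subunit, fell to 3.03 ± 0.216 CPM in shRNF26 libraries, against 15.6 ± 1.57 CPM in shcontrol libraries (log2 fold change -2.36, SE 0.13). The growth regulator MYC fell by 1.32, the cyclin gene CCND1 by 1.17 and the angiogenic factor VEGFA by 0.94 on the log2 scale. Those 4 genes respond to many signals besides STATs. IRF1, CEBPD, HIF1A, BIRC5 and TNFRSF1A were the 5 that rose. The median was -0.10 without a filter on low counts.

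Other inhibitors of JAK-STAT signalling, outside the SOCS family, were split. Among the 12 tested inhibitors 5 rose, 3 fell and 4 missed the threshold (66.7% called, against 41.4% of all tested genes). Their median was 0.02. The count that rose was 3 without shcontrol replicate 2. PIAS1, a SUMO ligase that restrains STAT factors, rose by 0.39 (SE 0.057) and the ubiquitin ligase CBLB by 0.29 (SE 0.083), while USP18, an interferon-induced inhibitor, fell by 0.63 (SE 0.12) and the adaptor SH2B3 by 0.47 (SE 0.057), all on the log2 scale. Partners of the SOCS box ligase had 4 of 11 lower, 0 higher and 7 that did not pass. Of these partners 36.4% were called, against 41.4% of all tested genes, and their median was -0.08. UBE2M fell by 0.37, the elongin gene ELOC by 0.35, UBE2F by 0.33 and ARIH2 by 0.21 on the log2 scale. Total-count scaling ended the calls of UBE2F (-0.24) and ARIH2 (-0.12) and turned the median to 0.01, and the UBE2F call was also lost without shcontrol replicate 1 (-0.27) or shRNF26 replicate 1 (-0.30). CUL5, the cullin of this ligase, had a log2 fold change of 0.06 and did not pass.

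Receptors and adaptors bound by SOCS proteins, and reported PIM substrates, also moved in both directions. Among the 12 tested receptors and adaptors 3 fell, 3 rose and 6 missed the threshold. Of them 50% were called, against 41.4% of all tested genes, and their median was 0.02. IRS2, an insulin receptor adaptor, fell to 89.6 ± 3.48 CPM in shRNF26 libraries, against 255 ± 15.1 CPM in shcontrol libraries (log2 fold change -1.51 with an SE of 0.050; adjusted p = 8.36e-15 by edgeR). EGFR, the receptor on which SOCS4 and SOCS5 act, fell by 0.45 (SE 0.035) on the log2 scale, while ERBB2 rose by 0.34 (SE 0.041). TIRAP, an adaptor of Toll-like receptors that SOCS1 targets, rose by 0.45 (SE 0.14), a call lost without shRNF26 replicate 2 (0.36). With total-count scaling 5 of these genes rose.

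Among the 23 tested PIM substrates 8 rose, 5 fell and 10 missed the threshold (56.5% called, against 41.4% of all tested genes). Their median was 0.05. MYC, whose protein PIM kinases stabilise, is on this list too and averaged 168 ± 6.69 CPM in shRNF26 and 418 ± 27.95 CPM in shcontrol libraries. The cell cycle inhibitor CDKN1A fell by 0.86 (SE 0.040) and the phosphatase CDC25A by 0.76 (SE 0.051), while the kinase MAP3K5 rose by 0.35 (SE 0.059), on the log2 scale. PIM kinases act on these proteins by phosphorylation, which transcript counts do not measure.

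**Figure D4:**
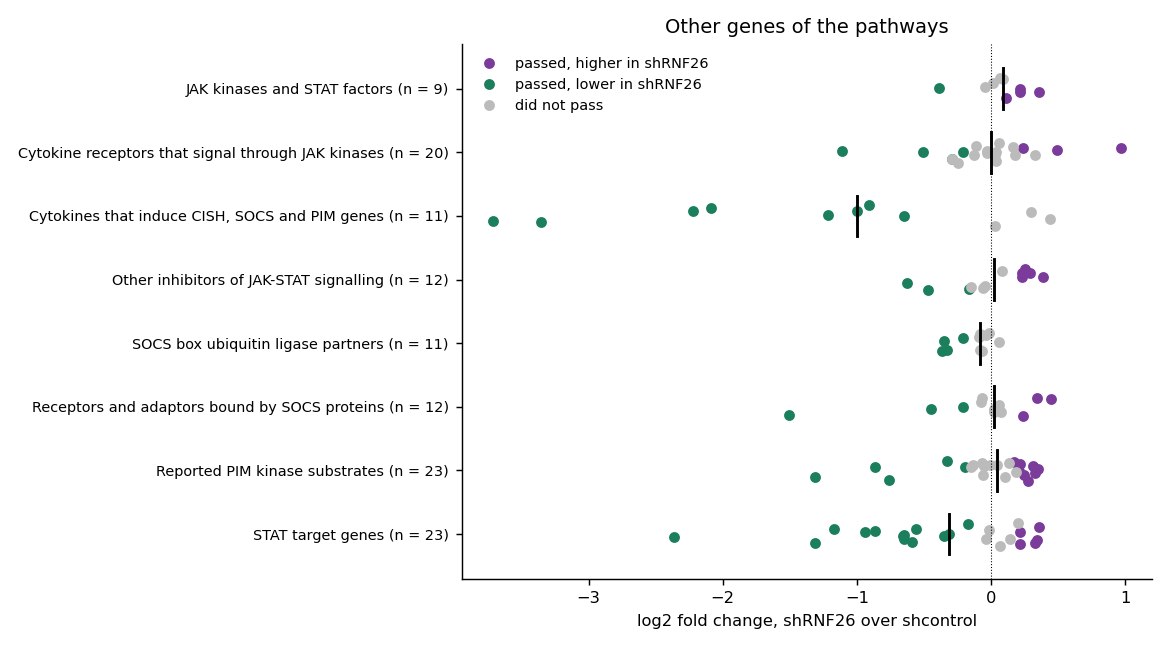
Log2 fold change (shRNF26 over shcontrol) of every tested gene in the 8 lists, 1 point per gene, coloured by whether it passed an edgeR adjusted p of 0.05 and in which direction, with the list median as a black line; n is the number of tested genes. The cytokines have the lowest median, -1.0, and the median of the STAT targets is -0.32.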

How the data were processed

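The authors deposited 1 table of raw counts per gene, named for FPKM but holding whole numbers whose totals differ between libraries. All 6 value columns were used, and 2 blank rows holding 0 counts were left out. The build is hg19, per the submitters' processing notes. The aligner, counting program, annotation and strand setting were not given in the sources used here. A gene-name table gave symbols for 61369 IDs and GENCODE 29 for 159 more. Lengths, overlaps and 3′ UTRs came from GENCODE 29 (GRCh38), with the UTR of the transcript with the longest coding sequence, and promoters from RefSeq.

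Genes averaging at least 1 CPM entered a two-sided quasi-likelihood test (edgeR 4.0.16, R 4.3.3, TMM scaling). Benjamini-Hochberg adjustment ran over 14766 genes, with a threshold of 0.05. The planned test for FPKM was not needed. Each SE was the size of the log2 fold change divided by the root of F. The step was tested on simulated data. Members and lists were chosen with earlier results of these data known. Text names RNF26, the members, SOCS3, SOCS7, up to 4 called genes of each list with the largest change, and 5 genes most like the member with the largest change. Some genes under this rule are not reported here. Genes beyond these, named after their values were seen, are the risen STAT targets, LIF, STAT3, CUL5, CSF2RA, CSF2RB, IL11RA and GHR. Alternatives used DESeq2 1.42.0, limma 3.58.1, other scalings and filters, a replicate block, and each library left out. Replicates of a group differed by more than sampling noise (chi-square per degree of freedom 2.15 to 4.28) and were kept as separate samples.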

Additional observations from a re-analysis of the deposited data

How the results depend on the processing

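With total-count scaling the number of genes called higher was 4449 and of genes called lower 2269, against 2785 and 3332 with TMM scaling, and the median of all tested genes was 0.0987 in place of 0.0079 on the log2 scale. Under the 14 alternatives no member changed sign, and 120 of 125 member values moved by less than the replicate SD. The other 5, all with total-count scaling, were the log2 fold change of PIM1 (-2.56), the log2 fold change of PIM2 (-0.16), the log2 fold change of CISH (0.28), the log2 fold change of SOCS4 (-0.27) and the log2 fold change of SOCS6 (-0.39). CISH was not tested at a mean of at least 5 CPM. Leaving out 1 library gave 4975 to 5804 genes called, 2184 to 2572 higher and 2791 to 3232 lower, and a PIM1 value of -2.69 to -2.61. DESeq2's Wald test gave 5330. List medians near 0 turned sign. Cytokine receptors that signal through JAK kinases, median log2 fold change near 0, gave -0.026 with no low-count filter, -0.021 at a mean of at least 5 CPM, and -0.027 (without shcontrol replicate 1) to 0.022 (without shRNF26 replicate 2) when 1 library was left out. That of the other inhibitors was -0.043 with no low-count filter. That of the receptors and adaptors ran over -0.047 (without shcontrol replicate 3) to 0.067 (without shcontrol replicate 1), and that of the SOCS box partners was 0.011 with total-count scaling. The cause of these shifts was not tested. No pairing by replicate number was visible, since deviations of same-numbered libraries correlated at 0.011, -0.027 and 0.093. These values cannot show whether the libraries were prepared in pairs. With the replicate block 6414 genes were called, against 6117. At 60 to 85 counts per library, CISH is the member whose precision depth limits most.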
